A study of Mus musculus with 12 samples.

Results

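The genes described here are 36 that mark GABAergic interneurons, the inhibitory neurons that are scattered among the principal cells of the hippocampus. They were chosen by symbol and fall into 4 roles: 4 genes of GABA synthesis, transport and breakdown, 9 genes of the transcription factors that specify interneurons (8 factors and the noncoding RNA Dlx6os1), 13 subclass markers, receptors and surface proteins, and 10 neuropeptides with a peptide-binding protein. All 36 have a row in the table of 24421 genes, and 33 were among the 13065 genes that passed the filter on low counts. The 3 that did not pass were Dlx6, Erbb4 and Chodl.

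The data were raw counts per gene from 3′ mRNA sequencing of hippocampal RNA, 12 libraries in all, from mice 2 months old that had all received BrdU, a thymidine analogue taken up by dividing cells. The 4 genotypes had 3 libraries each. WT is wild type. 5xFAD is a transgenic line in which mutated human genes of familial Alzheimer's disease are driven in neurons by a Thy1 promoter. p75NTRko stands for loss of the p75 neurotrophin receptor, encoded by Ngfr, and 5xFAD/p75NTRko carries the transgenes and the knockout label together. The labels call the libraries of a genotype biological replicates and do not say more of the animals, so the p-values measure the spread between these libraries. The series title asks how the receptor shapes adult hippocampal neurogenesis in this disease model, and the interneuron genes give the inhibitory side of the same tissue.

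GABAergic neurons make GABA from glutamate with the 2 glutamate decarboxylases Gad1 and Gad2, load it into vesicles with the transporter Slc32a1 (VGAT), and break it down with the transaminase Abat. Transcription factors of the Dlx family, with Lhx6, Sox6 and Satb1 downstream in cells born in the medial ganglionic eminence, set up the interneuron classes in the embryo and stay on in part in the adult. In the mature hippocampus the classes are told apart by calcium-binding proteins, receptors and neuropeptides: Pvalb in fast-spiking basket cells, Sst in dendrite-targeting cells, Vip in cells that inhibit other interneurons, Cck with Cnr1 in a further class of basket cells, and Reln, Ndnf and Lamp5 in neurogliaform cells. Several of these genes are not restricted to interneurons: Cck, Penk, Satb1 and Tac1 are also transcribed by excitatory or striatal neurons.

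The libraries held 4316739 to 6683613 counts assigned to genes, and 3 counts, treated as the limit of measurement, corresponded to 0.446 to 0.690 CPM (counts scaled to a common library size, on TMM-scaled library sizes). The 36 genes took 0.248% to 0.314% of the counts. Ngfr went against its label: it had 32 to 64 counts in the 6 libraries labelled as receptor knockouts and 1 to 12 in the other 6, so these groups are called p75NTRko-labelled below. Thy1 was at 1596 to 4019 CPM in the 6 libraries with the 5xFAD label and at 688 to 940 CPM in the others. Xist was at 360 to 439 CPM in 7 libraries, all WT, all 5xFAD/p75NTRko and p75NTRko replicate 1, and at 1.53 to 3.58 CPM in the other 5, so that 5xFAD differs in this class from WT and from 5xFAD/p75NTRko in every library, and the class and the genotype cannot be told apart in either comparison. Only the p75NTRko-labelled group holds both classes, so a term for the class rests on its replicate 1 against replicates 2 and 3. Markers of the labelled tissue were present: Slc17a7, the vesicular glutamate transporter of the principal cells, was at 818 to 1243 CPM. Markers of neighbouring tissue varied too. The 3 highest neocortical scores were those of WT replicates 1 and 2 and of 5xFAD/p75NTRko replicate 3. They were 4.11 to 4.72 (mean log2 CPM of 12 markers), against 3.46 to 4.01 in the other 9. WT replicate 2, at 4.11, was close to WT replicate 3, at 4.01. These 3 libraries also had the lowest scores of hippocampal principal neurons (5.63 to 5.95 against 6.33 to 6.63). Summed levels overlapped. For neocortical markers they were 440.3 to 674 CPM in the 3, with WT replicate 2 lowest, against 307 to 445 CPM in the other 9. For principal neurons they were 2050 to 2323 CPM against 2274 to 3112 CPM. The 3 are called high in neocortical markers below. Most counts and fold changes below are given with and without these 3 libraries. Leaving them out leaves 1 WT library, replicate 3. Gad1, Gad2, Slc32a1 and Tac1 had their highest value of all 12 libraries in it. Their fold changes against WT are then taken against that highest value, so a size kept or gained there is not a check.

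The regulatory sequence just before the start of 4 members is shown. Slc32a1 was taken because its WT libraries stood above all others. Sst and Npy were taken because their levels were related over the 12 libraries, though not past the threshold without the 3 named above. Vip was the other peptide gene in which the search below matched a cAMP response element, the site bound by CREB. That search covered only 28 of the 36 members and 250 bases, so other peptide genes may carry the element too. The sequences are RefSeq's for GRCm38.p6, 5′ to 3′ on the strand of the gene, and capitals mark the letters TGACGTCA (the full element) or TGACGT (its shorter form, contained in the full one), both searched on both strands. Slc32a1 is shown from chr2:158610638-158610757 (+ strand), Npy from chr6:49822590-49822709 (+ strand) and Vip from chr10:5639098-5639217 (+ strand), each 120 bases long. Sst is shown for 30 bases around its element, chr16:23890875-23890904 (- strand).
Slc32a1: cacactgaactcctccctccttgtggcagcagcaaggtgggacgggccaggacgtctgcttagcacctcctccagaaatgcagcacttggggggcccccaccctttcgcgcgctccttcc
Sst: cgcctccttggcTGACGTCAgagagagagt
Npy: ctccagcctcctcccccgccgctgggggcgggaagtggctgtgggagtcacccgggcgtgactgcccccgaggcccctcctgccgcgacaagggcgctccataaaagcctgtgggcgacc
Vip: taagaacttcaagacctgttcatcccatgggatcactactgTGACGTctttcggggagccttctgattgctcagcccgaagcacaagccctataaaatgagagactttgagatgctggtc
The full element began 48 bases before the start site of Sst and the shorter form 79 bases before that of Vip. Of the 28 members with a promoter in the RefSeq table, 1 (Sst) held TGACGTCA within 250 bases before a start site, and 4 (Dlx2, Sox6, Sst and Vip) held TGACGT. Counted over the 45 windows of these members, the shares were 2.22% and 8.89%, close to the 1.55% and 6.47% of all 32851 windows of that length. Slc32a1 and Npy had neither. A match is a description of letters, and binding was not measured.

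Levels reached from abundant transcripts to the limit of measurement. A 3′ library counts about 1 fragment per transcript end, so CPM were compared between genes without a length term. Reads in no annotated feature (28.9% to 33.5%) are not counted, and their part in the order of genes was not tested. Cck was the most abundant member (mean of 694 CPM over 12 libraries), followed by Gad1 (332 CPM), Satb1 (287 CPM), Sst (277 CPM) and Slc32a1 (236 CPM). Cnr1 (121 CPM) and Abat (104 CPM) came next. Members between 40 and 70 CPM were Penk (66.5), Gad2 (63.3), Nos1 (60.7), Npy (52.4), Kit (51.4), Dlx1 (48.7) and Pvalb (41.8). Between 10 and 40 CPM lay Reln (33.8), Sox6 (32.7), Lamp5 (28.7), Tac1 (25.5), Elfn1 (24.9), Adarb2 (23.3), Ndnf (20.4), Vip (17.8), Dlx2 (16.9), Crhbp (15.5), Crh (14.5) and Dlx6os1 (11.8). The lowest members that passed the filter were Nxph1 (9.70 CPM), Lhx6 (8.54), Pnoc (5.78), Cort (4.74), Dlx5 (3.02), Htr3a (2.55) and Npas1 (2.12). The 3 that did not pass had 0 to 2 counts (Dlx6), 0 to 4 counts (Erbb4) and 2 to 26 counts (Chodl) per library. Gad1 was thus counted at several times the level of Gad2. The receptor tyrosine kinase Erbb4, a common marker of interneurons, had at most 4 counts in a library, and the reason was not tested.

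Spread over the 12 libraries separated members as well. The coefficient of variation of CPM was lowest for Elfn1 (11.9%), Adarb2 (12.3%), Abat (12.4%) and Slc32a1 (12.6%), and highest among tested members for Lamp5 (62.0%), Crh (44.7%) and Penk (36.8%). Of the 36 members, 7 had their 3 highest values in exactly the 3 libraries high in neocortical markers: Satb1, Pvalb, Lamp5, Chodl, Sst, Vip and Crh. Among tested genes the pattern was seen in 6 of 33 members (18.2%) and in 6.10% of all genes.

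**Figure D1:**
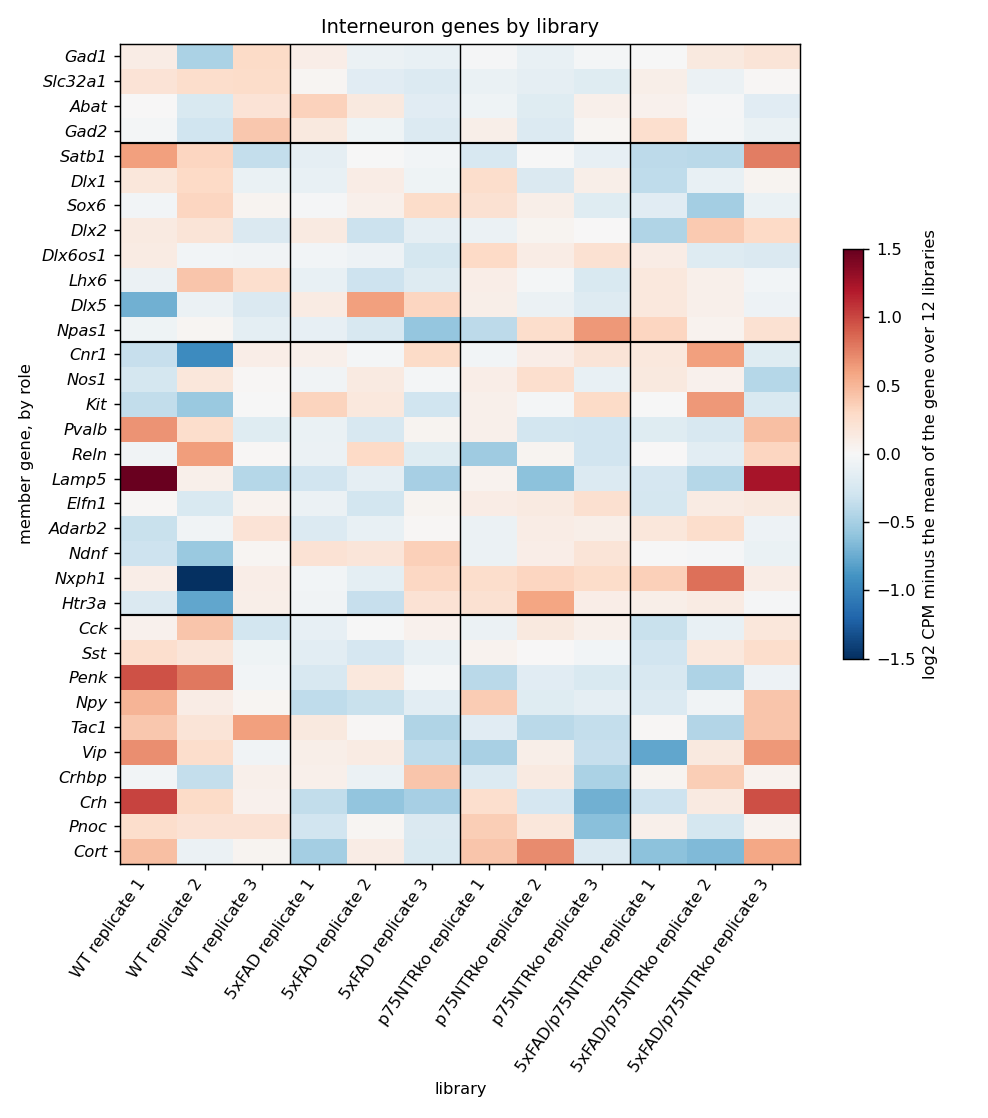
Log2 CPM of the 33 tested members (rows, grouped by role) in each of the 12 libraries (columns, grouped by genotype), as the difference from the gene's mean over all libraries. Lamp5, Satb1 and Crh are red in WT replicate 1 and 5xFAD/p75NTRko replicate 3, Nxph1 and Cnr1 are deep blue in WT replicate 2, and Slc32a1 is pale red in all 3 WT libraries.

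Of the GABA synthesis and transport genes, Slc32a1 differed most evenly between genotypes. It was at 270.3, 282 and 285 CPM in WT, at 239, 208 and 203 CPM in 5xFAD, at 219, 214 and 206 CPM in p75NTRko-labelled and at 249, 220.3 and 238 CPM in 5xFAD/p75NTRko libraries. All 3 WT libraries lay above all 9 others, and the 5xFAD libraries overlapped those of both other mutant genotypes. The means were 279 ± 7.66 CPM in WT, 217 ± 19.8 CPM in 5xFAD, 213 ± 6.55 CPM in p75NTRko-labelled and 236 ± 14.5 CPM in 5xFAD/p75NTRko (SD, n = 3 each). The decarboxylases did not show this order.
Gad1 was at 357, 237 and 401 CPM in WT, at 354, 309 and 305 CPM in 5xFAD, at 326, 305 and 322 CPM in p75NTRko-labelled and at 327, 365 and 377 CPM in 5xFAD/p75NTRko libraries. Gad2 was at 61.3, 50.96 and 83.1 CPM in WT, at 69.4, 59.7 and 54.5 CPM in 5xFAD, at 66.7, 54.3 and 64.1 CPM in p75NTRko-labelled and at 74.9, 61.6 and 58.5 CPM in 5xFAD/p75NTRko libraries. For both, the WT libraries held the lowest value of all 12 (replicate 2) and the highest (replicate 3), so every genotype lay inside the WT range. Abat ranged from 88.0 to 130.4 CPM with all genotypes overlapping. In GRCm38 an antisense gene overlaps Slc32a1 (chr2:158610767-158615748), and Gad1os overlaps Gad1. Gad1os had 0 to 2 counts. The gene antisense to Slc32a1, Gm14205, was not listed among the counted genes under that symbol. Neither was A830012C17Rik, which overlaps Penk in antisense. Whether counting used strand is not given in the sources used here.

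**Figure D2:**
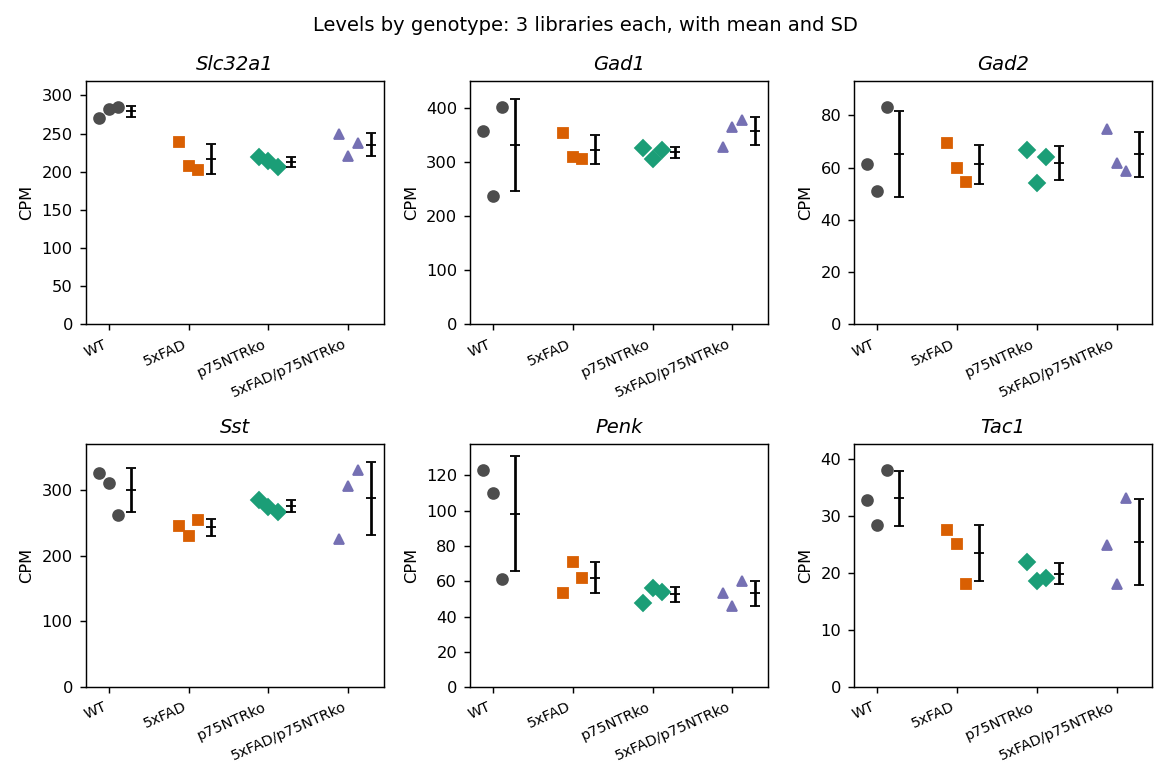
CPM of 6 members in the 4 genotypes, 1 symbol per library, with the mean and SD of 3 libraries as a bar beside them. The WT symbols of Slc32a1 (270.3 to 285 CPM) sit above all 9 others, whereas Gad1 and Gad2 in WT span the whole range and Penk is high in 2 of 3 WT libraries.

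Among the transcription factors, Satb1, a chromatin organiser of Sst and Pvalb cells that is also high in cortical excitatory neurons, was at 426 and 348 CPM in WT replicates 1 and 2 and at 472 CPM in 5xFAD/p75NTRko replicate 3, against 209 to 277 CPM in the other 9 libraries. Sox6, needed for the maturation of cells of the medial ganglionic eminence and also made by oligodendrocyte precursors, was at 31.4, 40.6 and 33.2 CPM in WT, at 31.9, 34.0 and 39.3 CPM in 5xFAD, at 37.8, 34.5 and 28.4 CPM in p75NTRko-labelled and at 28.6, 22.6 and 30.2 CPM in 5xFAD/p75NTRko libraries. The last group lay below WT and 5xFAD and overlapped the p75NTRko-labelled one.
Dlx5 was at 1.64, 2.76 and 2.49 CPM in WT and at 3.23, 4.69 and 3.79 CPM in 5xFAD, which is 11 to 17 counts against 18 to 25, and at 2.53 to 3.33 CPM in the other genotypes. Dlx6os1, a noncoding RNA that overlaps Dlx6 in antisense and was counted at 46 to 92 reads where Dlx6 had at most 2, was at 14.5, 12.6 and 13.7 CPM in p75NTRko-labelled, 12.7, 10.1 and 10.001 CPM in 5xFAD/p75NTRko, 12.7, 11.4 and 11.3 CPM in WT and 11.4, 11.1 and 9.68 CPM in 5xFAD libraries. Dlx1 (37.0 to 59.2 CPM) and Dlx2 (12.2 to 22.0 CPM) overlapped between all genotypes, Npas1 (1.26 to 3.42 CPM over all libraries) lay higher in 5xFAD/p75NTRko than in WT and 5xFAD libraries, and Lhx6 was at 6.76 to 7.81 CPM in 5xFAD and 7.92 to 11.4 CPM in WT. Dlx1as, antisense to Dlx1, had 89 to 148 counts, so the split of reads between these 2 genes is uncertain.

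Among subclass markers, Pvalb was at 65.1, 49.2 and 35.8 CPM in WT, at 38.0, 34.6 and 42.1 CPM in 5xFAD, at 43.2, 33.6 and 33.4 CPM in p75NTRko-labelled and at 35.97, 34.5 and 55.9 CPM in 5xFAD/p75NTRko libraries. Its 3 high values were in the libraries with high neocortical scores. Reln, the secreted protein of neurogliaform and Cajal-Retzius cells, was at 31.8, 51.1 and 33.3 CPM in WT, at 31.1, 40.8 and 29.0 CPM in 5xFAD, at 22.8, 34.0 and 27.1 CPM in p75NTRko-labelled and at 33.3, 29.6 and 41.3 CPM in 5xFAD/p75NTRko libraries, with all groups overlapping. Markers of Cajal-Retzius cells were sparse: 2 of 5 passed the filter, and Cacna2d2 was the most abundant of them.
Lamp5 was at 71.6, 26.8 and 18.9 CPM in WT, at 20.9, 23.1 and 17.9 CPM in 5xFAD, at 26.5, 16.6 and 22.0 CPM in p75NTRko-labelled and at 21.3, 18.9 and 60.3 CPM in 5xFAD/p75NTRko libraries. Apart from WT replicate 1 and 5xFAD/p75NTRko replicate 3, all libraries lay at or under 26.8 CPM. Ndnf, a secreted factor of the same neurogliaform class, went the other way: it was at 16.1, 13.6 and 20.6 CPM in WT, at 23.4, 22.9 and 25.9 CPM in 5xFAD, at 18.9, 21.6 and 23.0 CPM in p75NTRko-labelled and at 20.1, 19.9 and 18.9 CPM in 5xFAD/p75NTRko libraries. The 5xFAD libraries lay above those of WT and 5xFAD/p75NTRko.
Cnr1, the cannabinoid receptor of Cck basket cells, was at 92.3, 61.0 and 126 CPM in WT, at 124, 115 and 143 CPM in 5xFAD, at 115, 126 and 135 CPM in p75NTRko-labelled and at 131, 179.9 and 104 CPM in 5xFAD/p75NTRko libraries. Kit, a receptor tyrosine kinase carried by a subset of interneurons, was at 38.7, 33.9 and 49.9 CPM in WT, at 63.5, 56.0 and 40.6 CPM in 5xFAD, at 53.0, 49.0 and 61.1 CPM in p75NTRko-labelled and at 49.8, 78.6 and 42.6 CPM in 5xFAD/p75NTRko libraries. In both genes the lowest library was WT replicate 2 and the highest 5xFAD/p75NTRko replicate 2. The neurexin ligand Nxph1 (1.30 to 15.8 CPM), the synaptic protein Elfn1 (20.3 to 29.3 CPM), the RNA-binding protein Adarb2 of caudal ganglionic eminence cells (18.2 to 27.9 CPM), the nitric oxide synthase Nos1 (44.8 to 71.5 CPM) and the serotonin receptor Htr3a (1.30 to 3.91 CPM) filled the rest of the role.

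Of the 10 peptide genes, 8 had their highest genotype mean in WT. Without the 3 libraries high in neocortical markers, which leaves 1 WT library, 3 had it there (Crh, Tac1 and Pnoc). The share of all genes with their highest mean in WT is not given here, so neither count has a background beside it. Cck was at 719, 920.5 and 568 CPM in WT, at 631, 683 and 719 CPM in 5xFAD, at 646, 761 and 722 CPM in p75NTRko-labelled and at 544, 637 and 774 CPM in 5xFAD/p75NTRko libraries, with all groups overlapping. Sst was at 326, 311 and 262 CPM in WT, at 246, 229.9 and 255 CPM in 5xFAD, at 285, 275 and 267 CPM in p75NTRko-labelled and at 225, 306 and 331 CPM in 5xFAD/p75NTRko libraries. The 3 5xFAD libraries lay below all WT and p75NTRko-labelled ones, and the 5xFAD/p75NTRko libraries spanned the range.
Npy, co-released by many Sst cells, was at 73.5, 55.7 and 52.3 CPM in WT, at 39.4, 40.6 and 46.1 CPM in 5xFAD, at 66.9, 45.1 and 46.8 CPM in p75NTRko-labelled and at 44.6, 49.3 and 68.5 CPM in 5xFAD/p75NTRko libraries. Vip was at 27.8, 20.6 and 16.4 CPM in WT, at 18.2, 18.6 and 13.04 CPM in 5xFAD, at 12.05, 18.2 and 13.4 CPM in p75NTRko-labelled and at 9.83, 18.9 and 26.9 CPM in 5xFAD/p75NTRko libraries. Npy separated WT from 5xFAD without overlap, and Vip did not.
Penk, the enkephalin precursor, was at 123, 110.0 and 61.4 CPM in WT, at 53.5, 70.8 and 62.1 CPM in 5xFAD, at 47.8, 56.1 and 54.1 CPM in p75NTRko-labelled and at 53.5, 45.8 and 60.0 CPM in 5xFAD/p75NTRko libraries. WT replicate 3 was at the level of the other genotypes, and WT replicates 1 and 2 were well above it. Tac1, the precursor of substance P, was at 32.9, 28.4 and 38.2 CPM in WT, at 27.5, 25.2 and 18.1 CPM in 5xFAD, at 22.1, 18.6 and 19.2 CPM in p75NTRko-labelled and at 24.98, 18.1 and 33.3 CPM in 5xFAD/p75NTRko libraries, so WT lay above 5xFAD and p75NTRko-labelled libraries in all 3 replicates.
Crh, the stress peptide made by a subset of hippocampal interneurons, was at 27.6, 16.6 and 14.1 CPM in WT, at 10.4, 8.83 and 9.47 CPM in 5xFAD, at 16.1, 11.3 and 8.03 CPM in p75NTRko-labelled and at 10.8, 14.8 and 26.6 CPM in 5xFAD/p75NTRko libraries. The 5xFAD libraries lay below those of WT and 5xFAD/p75NTRko, whose highest values were in libraries with high neocortical scores. Its binding protein Crhbp (10.9 to 20.4 CPM), the nociceptin precursor Pnoc (3.57 to 7.41 CPM) and the Sst relative Cort (2.73 to 7.59 CPM) completed the peptides.

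5xFAD was compared with WT to see whether the transgenes alone go with another level of interneuron transcripts. With edgeR's quasi-likelihood test and adjustment over all genes, 0 of 33 members passed the threshold of 0.05 (background 0.0536% of genes). Of the members, 24 of 33 fold changes were negative (72.7%, against 50.4% of all genes) and the median log2 fold change was -0.14, against -0.00 over all genes tested. This excess was absent without the 3 libraries, where 17 of 33 were negative (51.5%, against 48.4% of all genes). At an unadjusted edgeR p under 0.05, 7 of 33 members (21.2%) were lower, where 6.14% of all genes were, and 2 (6.06%) were higher, where 7.73% were. The 7 were Slc32a1, Penk, Crh, Npy, Sst, Tac1 and Lhx6, and the 2 were Ndnf and Dlx5. Of the 10 peptide genes, 9 had a negative fold change and 5 of these were among the 7. With the 3 libraries left out 6 of 10 were negative. Of the 5, Tac1 alone then had a larger difference, taken against the WT library in which it was highest. In bulk tissue, fewer cells of a type and less RNA per cell cannot be told apart.

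Slc32a1 had the smallest p. It was 1.29-fold lower in 5xFAD (log2 fold change of -0.37, SE 0.0872, edgeR adjusted p = 0.150) and passed with DESeq2 (adjusted p = 0.0160), which called 0.858% of genes and no other member. Without the 3 libraries high in neocortical markers, so against WT replicate 3 in which it was highest, its log2 fold change was -0.39. With the Xist class as a further term it was -0.30 (edgeR adjusted p = 0.949). Ndnf was 1.43-fold higher (log2 fold change of 0.52, SE 0.154, edgeR adjusted p = 0.234), and without the 3 libraries its log2 fold change was 0.23 (edgeR adjusted p = 0.833).
Crh was 2.04-fold lower (log2 fold change of -1.03, SE 0.338, edgeR adjusted p = 0.257), Npy 1.44-fold lower (-0.53, SE 0.188, edgeR adjusted p = 0.278) and Penk 1.58-fold lower (-0.66, SE 0.200, edgeR adjusted p = 0.236). Dlx5 was 1.70-fold higher (0.76, SE 0.301, edgeR adjusted p = 0.313), and was at 0.64 without the 3 libraries (edgeR adjusted p = 0.786). The differences of Crh, Npy and Penk were smaller without the 3 libraries with high neocortical scores: the log2 fold change was -0.56 for Crh (edgeR adjusted p = 0.715), -0.32 for Npy (edgeR adjusted p = 0.730) and 0.02 for Penk (edgeR adjusted p = 0.993). With those libraries left out, 4 of 33 members (12.1%) were lower at an unadjusted p under 0.05, where 4.003% of all genes were, 1 (3.03%) was higher, where 3.85% were, and the median was -0.06. Tac1 was then at -0.68, from -0.48 with all libraries. Gad1 was then at -0.31, from -0.04, and Gad2 at -0.44, from -0.09. For these genes the WT library left, replicate 3, held the highest value of all libraries.

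p75NTRko-labelled libraries were compared with WT to ask the same of the receptor label. Again 0 of 33 members passed with edgeR (background 0%), while 805 genes, 6.16%, were lower and 5.33% higher at an unadjusted p under 0.05. Of the members, 5 (15.2%) were lower, namely Slc32a1, Penk, Tac1, Reln and Crh, and 1 (3.03%), Ndnf, was higher. The median log2 fold change of the members was -0.07. All 4 GABA synthesis and transport genes had negative fold changes, but those of Gad1 (-0.06), Gad2 (-0.07) and Abat (-0.05) were smaller than their edgeR SE of 0.146, 0.164 and 0.136. With the 3 libraries high in neocortical markers left out, Gad1 was at -0.34 and Gad2 at -0.42. That leaves 1 WT library, replicate 3, in which both genes were highest. Among the peptides, 9 of 10 fold changes were negative, and 6 of 10 without the 3 libraries, while 50.1% and 49.8% of all genes were.
Slc32a1 was 1.31-fold lower (log2 fold change of -0.39, SE 0.0872, edgeR adjusted p = 0.171), and -0.42 without the 3 libraries, against its highest library. Penk was 1.87-fold lower (-0.90, SE 0.202, edgeR adjusted p = 0.171). DESeq2, which called 0.327% of genes, called both, each with an adjusted p of 0.0147. Without the 3 libraries Penk was at -0.22 (edgeR adjusted p = 0.865), a value that moved by over 1.5 times with the library set.
Tac1 was 1.66-fold lower (-0.73, SE 0.206, edgeR adjusted p = 0.264). Without the 3 libraries it was at -0.93, against WT replicate 3, in which Tac1 was highest. Reln was at -0.48 (SE 0.207, edgeR adjusted p = 0.407), Crh at -0.73 (SE 0.330, edgeR adjusted p = 0.422) and Ndnf at 0.34 (SE 0.155, edgeR adjusted p = 0.428). Without the 3 libraries these were -0.26, -0.27 and 0.05, and the members at an unadjusted p under 0.05 numbered 4 lower (12.1%, against 3.84% of all genes) and 1 higher (3.03%, against 2.49%). Of all members, 21 of 33 fold changes were negative with all libraries and 14 of 33 without the 3.

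5xFAD/p75NTRko was compared with WT to give the difference with transgenes and receptor label together. With edgeR 0 of 33 members passed (background 0%), and at an unadjusted p under 0.05 3 members (9.09%) were lower, where 4.44% of genes were, and 2 (6.06%) higher, where 5.51% were. Penk was 1.85-fold lower (log2 fold change of -0.89, SE 0.201, edgeR adjusted p = 0.242). It was the 1 member that DESeq2 called (adjusted p = 0.0176, background 0.211%), and was at -0.30 without the 3 libraries (edgeR adjusted p = 0.765). Slc32a1 was 1.18-fold lower (-0.24, SE 0.0869, edgeR adjusted p = 0.469) and Sox6 1.29-fold lower (-0.36, SE 0.154, edgeR adjusted p = 0.489).
Cnr1 was 1.49-fold higher (0.57, SE 0.219, edgeR adjusted p = 0.472) and Kit 1.39-fold higher (0.48, SE 0.217, edgeR adjusted p = 0.492). Without the 3 libraries Slc32a1 was at -0.28 (edgeR adjusted p = 0.686), Sox6 at -0.37 (edgeR adjusted p = 0.765), Cnr1 at 0.31 (edgeR adjusted p = 0.765) and Kit at 0.36 (edgeR adjusted p = 0.815), and 2 members were lower (6.06%, against 3.78% of all genes) and 0 higher (against 3.24%) at an unadjusted p under 0.05. The 3 comparisons with WT share the same 3 WT libraries, so their values are side by side and not independent of each other.

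**Figure D3:**
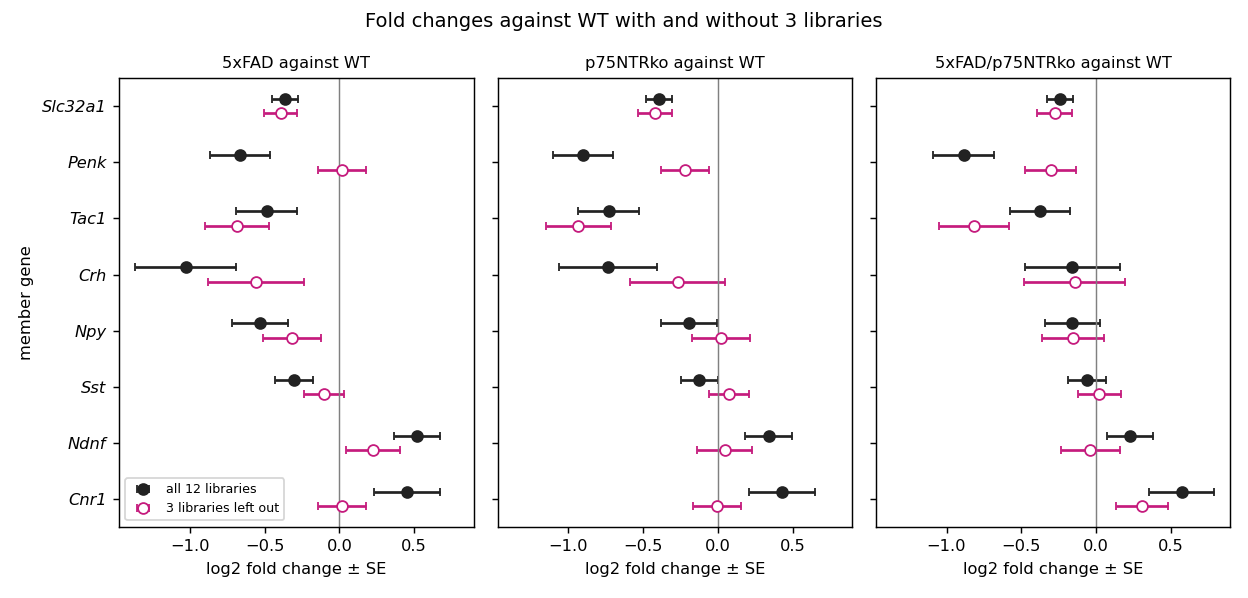
Log2 fold change against WT (horizontal axis, with its SE) of 8 members in the 3 mutant genotypes, with all 12 libraries (filled) and without the 3 libraries high in neocortical markers (open). Slc32a1 stays between -0.42 and -0.24 in all 6 estimates, whereas Penk moves from -0.66, -0.90 and -0.89 to 0.02, -0.22 and -0.30. The WT library left in the open estimates, replicate 3, holds the highest Slc32a1 level of all 12.

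The receptor label within the transgene background, 5xFAD/p75NTRko against 5xFAD, gave 0 of 33 members past the edgeR threshold (background 0.0383%) and 0 with DESeq2 (background 0.125%). At an unadjusted edgeR p under 0.05, 1 member was higher, where 1.98% of genes were, and 1 lower, where 3.1% were, so both shares (3.03%) were close to those of all genes. Crh was 1.82-fold higher (log2 fold change of 0.87, SE 0.342, edgeR adjusted p = 0.878) and Sox6 1.29-fold lower (-0.36, SE 0.155, edgeR adjusted p = 0.899). Without the 3 libraries Crh was at 0.41 (edgeR adjusted p = 0.809) and Sox6 at -0.44 (edgeR adjusted p = 0.596).
The transgenes within the receptor label, 5xFAD/p75NTRko against p75NTRko-labelled, gave 0 of 33 members past the edgeR threshold (background 0%), 0 with DESeq2 (background 0.168%) and 0 at an unadjusted p under 0.05 in either direction, where 3.6% of genes were higher and 2.99% lower. The smallest p-values were those of Dlx6os1 (log2 fold change of -0.31, SE 0.160, edgeR adjusted p = 0.793) and Sox6 (-0.30, SE 0.156, edgeR adjusted p = 0.798). In these comparisons the count changed with the library set: without the 3 libraries, 3 members were higher (9.09%, against 3.08% of all genes) and 3 lower (9.09%, against 3.92%) in the comparison with 5xFAD. In that with p75NTRko-labelled libraries 1 was higher (3.03%, against 5.81%) and 5 were lower (15.2%, against 4.42%). The adjusted threshold was passed by 0 members in both, and Dlx6os1 was then at -0.25 (edgeR adjusted p = 0.706) and Sox6 at -0.38 (edgeR adjusted p = 0.444).

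The interaction tests whether the change with the transgenes differs between libraries with and without the receptor label. It had 0 of 33 members past the edgeR threshold (background 0.0383%). At an unadjusted edgeR p under 0.05, 5 members (15.2%) were positive, where 5.19% of genes were, and 1 (3.03%) was negative, where 4.13% were. A positive value here means that the level was less low, or higher, in 5xFAD/p75NTRko than the sum of both single differences gives. Of the 10 peptide genes, 8 were positive (80%, against 50.3% of all genes) with a median of 0.46. With the 3 libraries high in neocortical markers left out 6 of 10 were positive (60%, against 49.5% of all genes) and their median was 0.10.
Slc32a1 had an interaction of 0.51 (log2, SE 0.123, edgeR adjusted p = 0.319) and was the 1 member called by DESeq2 (adjusted p = 0.0495, background 0.193%). It was 0.53 without the 3 libraries, where WT is its highest library alone, and 0.41 with the Xist class as a term (edgeR adjusted p = 0.998). Crh was at 1.60 (SE 0.476, edgeR adjusted p = 0.373), Tac1 at 0.84 (SE 0.292, edgeR adjusted p = 0.419) and Ndnf at -0.63 (SE 0.218, edgeR adjusted p = 0.419).
Lamp5 was at 1.55 (SE 0.656, edgeR adjusted p = 0.503) and Penk at 0.68 (SE 0.287, edgeR adjusted p = 0.503), and both turned sign without the 3 libraries (-0.25 and -0.10). Satb1, named here after its values were seen, went from 0.54 (edgeR adjusted p = 0.667) to -0.57 (edgeR adjusted p = 0.271). Crh was then at 0.68 (edgeR adjusted p = 0.830), Tac1 at 0.80 (edgeR adjusted p = 0.618) and Ndnf at -0.31 (edgeR adjusted p = 0.870). Without those libraries 5 members were positive (15.2%, against 3.54% of all genes) and 2 negative (6.06%, against 2.96%) at an unadjusted p under 0.05, and the median of the members was 0.05, from 0.16 with all libraries.

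Markers of neighbouring tissue moved with several of these results. WT libraries had neocortical scores of 4.01 to 4.49, against 3.68 to 3.94 in 5xFAD, 3.66 to 3.82 in p75NTRko-labelled and 3.46 to 4.72 in 5xFAD/p75NTRko libraries, with all 12 markers past the filter and Tbr1 the most abundant. WT libraries had striatal scores of 3.76 to 3.78, against 3.19 to 3.50 in 5xFAD, 3.09 to 3.35 in p75NTRko-labelled and 2.74 to 3.28 in 5xFAD/p75NTRko libraries, so that WT lay above all others, as it did for Slc32a1. The summed striatal level was 161 to 175 CPM in WT and 124 to 147 CPM in the other 9. Of 12 striatal markers 10 passed the filter, Ppp1r1b was the most abundant, and Drd2 and Gpr6 were listed at 0 in all libraries.
The score of thalamus and habenula, from 10 of 13 markers led by Prkcd, lay at 4.80 to 5.32 in WT, against 4.13 to 4.29 in 5xFAD, 3.90 to 4.20 in p75NTRko-labelled and 3.62 to 5.48 in 5xFAD/p75NTRko libraries, with replicate 1 of the last at 5.48. That library also had the highest Slc32a1 level outside WT, 249 CPM. Choroid plexus genes, led by Ttr, ranged from 182 to 7375 CPM in sum, and 4 of 10 hypothalamic markers passed the filter, led by Hdc, with sums of 8.69 to 38.3 CPM. The part of these tissues in the differences of Slc32a1, Penk, Tac1 and Crh was not tested.

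**Figure D4:**
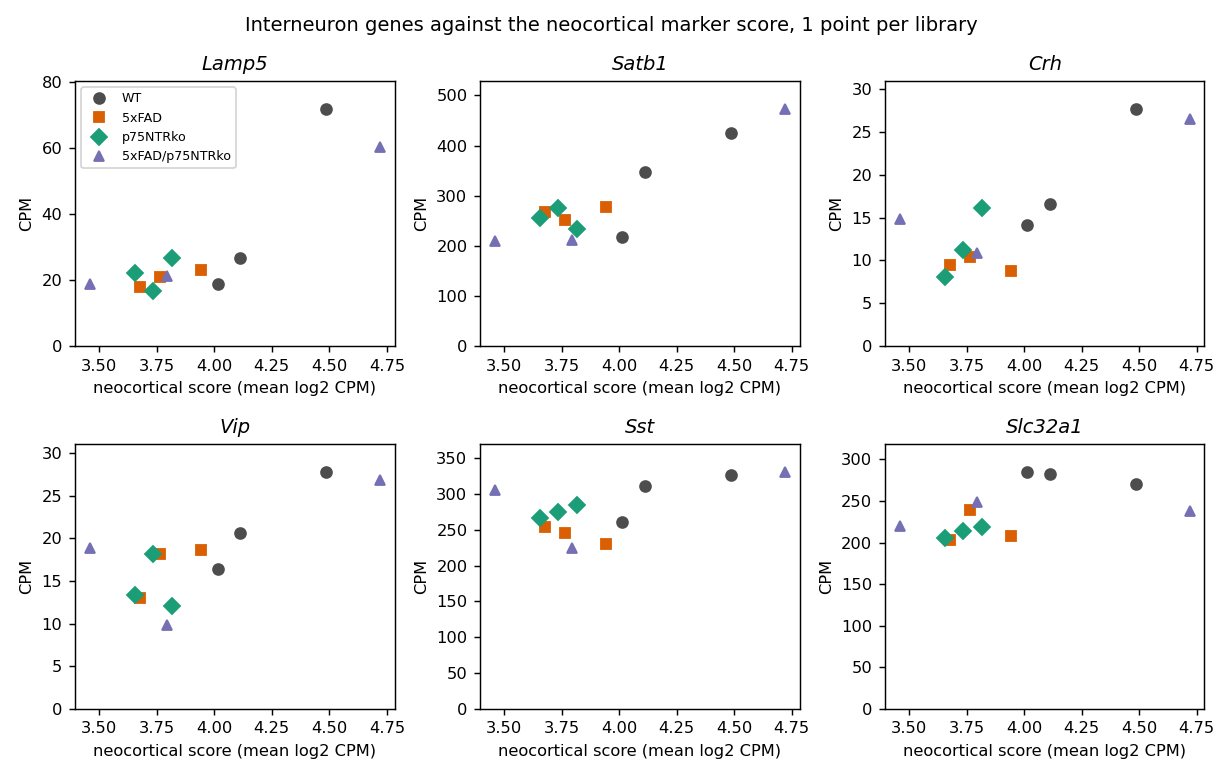
CPM of 6 members against the neocortical score (mean log2 CPM of 12 markers), 1 symbol per library with the genotype by shape. Lamp5 and Satb1 are highest in the libraries with scores of 4.49 and 4.72, and Slc32a1 is highest in the 3 WT libraries, whose scores of 4.01 to 4.49 are above those of all other libraries but 1.

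Relations between members were tested over the 12 libraries on log2 CPM, 4 in all. The permutations shuffled all 12 libraries without regard to genotype, so differences between genotypes can enter each r and its p. WT libraries had the highest striatal scores, and the part of genotype in these relations was not tested. Sst and Npy were related (Pearson r = 0.810, adjusted permutation p = 0.00598; Spearman rho = 0.867, adjusted permutation p = 0.00192), and r was 0.655 without the 2 libraries farthest from the median of Sst. Gad1 and Gad2 were related less closely (r = 0.667, adjusted permutation p = 0.0175; rho = 0.622, adjusted permutation p = 0.0453), and that relation rested on WT replicates 2 and 3, without which r was 0.248.
Tac1 followed the striatal score (r = 0.772, adjusted permutation p = 0.00598; rho = 0.776, adjusted permutation p = 0.00814), with r = 0.705 without the 2 farthest libraries. Penk did so with r = 0.720 (adjusted permutation p = 0.00961; rho = 0.594, adjusted permutation p = 0.0453), but without 5xFAD/p75NTRko replicate 2 and WT replicate 1 r was 0.580 and no longer held (permutation p = 0.0770). Within the 7 libraries high in Xist, r was 0.620 for Gad1 with Gad2 (permutation p = 0.142), 0.722 for Sst with Npy (permutation p = 0.0630), 0.773 for Penk (permutation p = 0.0286) and 0.813 for Tac1 (permutation p = 0.0225), and the other class of 5 libraries was too small. Without the 3 libraries high in neocortical markers r was 0.757 (permutation p = 0.0173), 0.600 (permutation p = 0.0842), 0.521 (permutation p = 0.141) and 0.835 (permutation p = 0.00491) in the same order, so the relations of Sst with Npy and of Penk with the striatal score did not hold there.

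A further list of 30 interneuron and GABA genes, 29 of them past the filter, gave 0 genes past the adjusted edgeR threshold in any comparison. Gabbr1, a GABA-B receptor subunit, was its most abundant gene. At an unadjusted edgeR p under 0.05, 1 gene of the list was higher in 5xFAD against WT (3.45%, against 7.73% of all genes). There 0 were lower, against 6.14% of all genes. In p75NTRko-labelled against WT 1 was higher (3.45%, against 5.33%) and 5 were lower (17.2%, against 6.16%). In 5xFAD/p75NTRko against p75NTRko-labelled libraries 7 were higher (24.1%, against 3.6%) and 0 lower (against 2.99%). The interaction had 6 positive (20.7%, against 5.19%) and 0 negative (against 4.13%). Against 5xFAD, 1 gene was higher in 5xFAD/p75NTRko (3.45%, against 1.98%) and 0 lower (against 3.1%). Against WT, 1 was higher there (3.45%, against 5.51%) and 0 lower (against 4.44%). The fit without the 3 libraries left 1 WT library, and 30 genes passed its filter. The list's median log2 fold change went from -0.12 to -0.10 in 5xFAD and from -0.25 to -0.26 in p75NTRko-labelled against WT. In 5xFAD/p75NTRko it went from 0.08 to 0.07 against 5xFAD, from 0.20 to 0.22 against p75NTRko-labelled and from -0.01 to 0.03 against WT. For the interaction it went from 0.21 to 0.14. The counts at an unadjusted p under 0.05 above are for all libraries, and they moved with the library set. In 5xFAD and in 5xFAD/p75NTRko against WT, the 0 lower held only with all libraries, which the medians do not show.
Btbd11, a gene of Pvalb cells, was at -0.39 in 5xFAD against WT (SE 0.181, edgeR adjusted p = 0.363), at -0.68 in p75NTRko-labelled against WT (SE 0.185, edgeR adjusted p = 0.259) and at 0.88 in the interaction (SE 0.261, edgeR adjusted p = 0.373), and without the 3 libraries these were -0.17, -0.47 and 0.60. Kcnc2, a potassium channel of fast-spiking cells, was at -0.29 in p75NTRko-labelled against WT (edgeR adjusted p = 0.337), at 0.31 in 5xFAD/p75NTRko against p75NTRko-labelled (edgeR adjusted p = 0.673) and at 0.41 in the interaction (edgeR adjusted p = 0.413), against -0.40, 0.36 and 0.56 without the 3 libraries.
Krt73 was at 0.80 in 5xFAD against WT (edgeR adjusted p = 0.280) and at 1.08 in 5xFAD/p75NTRko against WT (edgeR adjusted p = 0.325), where Pthlh, a gene of Pvalb cells near the limit of measurement, was at -1.05 (edgeR adjusted p = 0.541). Krt73 was at 0.56 and 1.05, and Pthlh at -2.08, without the 3 libraries. Against 5xFAD, Id2 was at 0.27 (edgeR adjusted p = 0.970) and Rpp25 at 0.55 (edgeR adjusted p = 0.980) in 5xFAD/p75NTRko, and without the 3 libraries at 0.19 and 0.45.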

How the data were processed

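Gene counts came from 12 hippocampal libraries made with a 3′ mRNA kit read in the forward direction from RNA with an integrity number above 7 and 14 amplification cycles, per the labels' protocols. The authors deposited raw counts per gene symbol. The submitters' processing notes name FastQC, HISAT2, SAMtools, HTSeq, edgeR and the build mm10. The use of strand and the annotation are not given in the sources used here. The 5 summary lines of the count table were left out: 28.9% to 33.5% of reads lay in no feature, 18.6% to 25.4% were unaligned, 9.57% to 12.1% had several alignments and 0.226% to 0.291% were ambiguous. Assigned reads were 32.2% to 38.5%. The limit of measurement covers counting error only. The SE of a fold change is from edgeR's quasi-likelihood fit and the SD of a level is over the libraries of a genotype. Both therefore include the spread between these libraries.

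The tests on counts used edgeR 4.0.16 (R 4.3.3): filterByExpr by genotype, TMM factors of 0.975 to 1.03, 1 quasi-likelihood fit of all 12 libraries, and Benjamini-Hochberg adjustment over 13065 genes with a threshold of 0.05. The common biological coefficient of variation was 13.8%. Comparisons were 6. Log2 CPM used a prior count of 2, and a marker score is the mean log2 CPM of a list's tested genes. Relations used 100000 permutations, two-sided. The procedure was tested on simulated data. No pair of replicates was as close as counting noise (chi-square per degree of freedom of 3.03 to 16.8). Positions are from GENCODE for GRCm38, in which 35 of 36 members had 1 position.

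Alternatives were DESeq2 1.42.0, RLE factors, no filter, a mean of 50 counts, the compared genotypes alone, the replicate number as a block, the Xist class as a term and each library left out. Leaving out 3 libraries together was added after seeing the data. It left WT with 1 library, which was taken to vary like the other genotypes. The members and lists were chosen with earlier results of these data known. The text names all 36 members, gives tests for up to 6 members with the smallest p under 0.05 per comparison (the 2 smallest if none), and names the most abundant gene of each further list and the 2 smallest p-values of the further interneuron list. A gene that this rule would name is not reported here.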

Additional observations from a re-analysis of the deposited data

How the results depend on the processing

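With edgeR no member passed in any comparison, and RLE factors, a mean of 50 counts, the compared genotypes alone, the replicate block and the Xist term left these counts at 0. DESeq2 called 1 member in 5xFAD against WT, 2 in p75NTRko-labelled against WT, 1 in 5xFAD/p75NTRko against WT and 1 in the interaction. Without the filter, 1 was called in p75NTRko-labelled and 1 in 5xFAD/p75NTRko against WT (Penk). With a library left out, 0 to 1 were called in each comparison with WT: without WT replicate 3 Penk passed in all 3 (edgeR adjusted p = 0.0203 in 5xFAD, adjusted p = 0.00487 in p75NTRko-labelled and adjusted p = 0.00527 in 5xFAD/p75NTRko).

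Counts at an unadjusted p under 0.05 moved more. In 5xFAD against WT (9) they were 1 with the Xist term, 5 without the 3 libraries and 4 to 12 with a library left out. In p75NTRko-labelled against WT (6) they were 11 without the filter, 3 with the Xist term and 4 to 14 with a library left out. In 5xFAD/p75NTRko against 5xFAD (2) they were 4 with the compared genotypes alone, 1 with the replicate block, 6 without the 3 libraries and 0 to 5 with a library left out. Against p75NTRko-labelled (0) they were 1 with the Xist term, 6 without the 3 libraries and 1 to 3 with a library left out. Against WT (5) they were 2 with the compared genotypes alone, 3 with the replicate block, 2 without the 3 libraries and 1 to 13 with a library left out. The interaction (6) had 0 with the Xist term and 4 to 12 with a library left out. The cause was not tested.

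Between libraries of different genotypes, same-numbered pairs had correlations of -0.42 to 0.14 (2 of 18 pairs over 0.1), and differently numbered ones of -0.22 to 0.34 (8 of 36). These are not correlations of the levels themselves, which were much alike in all libraries. No label says whether a number marks a shared litter or day, and so few libraries cannot decide it. The replicate block changed no other count by more than 1.5 times.

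Among the genes named by the rule, signs turned for Penk in 5xFAD against WT (0.017) and the interaction (-0.10) and for Lamp5 in the interaction (-0.25) without the 3 libraries, and for Npy in 5xFAD against WT with the Xist term (0.012). Over all 33 members, 8 to 13 turned sign per comparison without the 3 libraries, with Lamp5 among them in all 6. The share of all genes that turned sign is not given here, so this count is not read as a trait of the members. Slc32a1 ranged from -0.44 to -0.30 in 5xFAD, -0.42 to -0.35 in p75NTRko-labelled and -0.29 to -0.20 in 5xFAD/p75NTRko against WT. The relation of Gad1 with Gad2 was 0.548 to 0.761 with a library left out and that of Penk with the striatal score 0.648 to 0.810. Sst with Npy (0.600) and Penk with the striatal score (0.521) no longer held without the 3 libraries. Depth limits Dlx5, Npas1 and Htr3a, with 6 to 25 counts per library.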

Other observations

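WT replicate 2 held the lowest value of all 12 libraries for 20.1% of all genes tested and the highest for 16.5%. The shares of the 33 tested members were close to these, with 8 lowest (24.2%) and 5 highest (15.2%). The genes that follow were chosen after their values were seen. Nxph1, a ligand of neurexins, was at 1.30 CPM there (8 counts), while the other 11 libraries were at 7.89 to 15.8 CPM. Chodl, a marker of long-range Sst cells that did not pass the filter, had 26 and 19 counts in WT replicates 1 and 2 and 10 in 5xFAD/p75NTRko replicate 3, against 2 to 7 in the other 9 libraries. Pnoc, the nociceptin precursor, was at 6.64 to 6.87 CPM in WT, the narrowest spread of its 4 genotypes. It rests on 46, 41 and 40 counts, where counting error alone is wider, so no trait of WT is read from it.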
